A study of Mus musculus with 6 samples.

Results

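Genes of mitosis, of the kinetochore and of the condensin complex were followed in cultured mouse neural stem cells. They were 47 named genes, chosen by symbol and matched through their Ensembl identifiers, out of 29267 identifiers in the tables. Kinesins of the Kif family were not included. The libraries fall into 6 groups of 1 library each: cells differentiated under a label that reads D2, with naloxone, with DAMGO or without ligand (control), and undifferentiated cells (NSC), again with naloxone, with DAMGO or without ligand. Naloxone is an antagonist of opioid receptors and DAMGO is a peptide that activates the mu opioid receptor. The labels give no dose or time for the ligands, no meaning for D2 beyond differentiation, and no word on separate cultures, so the p-values reflect how far these 6 libraries spread, which may be technical. All cells were of the strain OG2, known as a mouse line with a green fluorescent reporter under the Oct4 promoter, and were at passage 8.

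Mitosis separates the copied chromosomes. Cyclin-dependent kinase 1 with its cyclins starts it, condensin compacts the chromosomes, and the kinetochore, a protein assembly on the centromere, ties each chromosome to spindle microtubules. The spindle checkpoint holds back the anaphase-promoting complex until all kinetochores are attached, after which separase cuts cohesin and the cell divides. Most of these genes are transcribed in G2 and M phase, so in a culture their transcripts are widely used as a measure of how many cells are cycling; in neural stem cells they are high during self-renewal and low once cells leave the cycle. RNA was measured in bulk, so fewer cells of a type and less RNA per cell cannot be told apart.

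Library totals were 8417074, 8809642 and 10218353 expected counts in D2 and 13561237, 9112916 and 10674127 in NSC, and values over 3 libraries are given in the order naloxone, DAMGO, control throughout. The unit CPM is the TMM-normalised count scaled to library size, and TPM, which is also scaled to transcript length, is used where genes are compared with each other. Over all 13216 tested genes 40.0% rose in D2 and 39.8% fell (edgeR, adjusted p under 0.05). Of 8 neural stem cell markers, 6 rose in D2 and 2 fell by the same test, while their summed level was 5657 to 6053 CPM in D2 and 6894 to 7007 CPM in NSC. Of 10 astrocyte markers, 10 rose, and their summed level was 8484 to 8751 CPM in D2 and 984 to 1040 CPM in NSC. For oligodendrocyte lineage markers 8 of 9 tested rose (6230 to 6997 CPM in D2 and 3263 to 3387 CPM in NSC), and for neuron markers 3 of 7 tested rose and 3 fell (1267 to 1411 CPM in D2 and 1492 to 1542 CPM in NSC). Fibroblast and pericyte markers rose for 4 of 7 tested, at 43.6 to 55.8 CPM in D2 and 2.54 to 13.1 CPM in NSC. Microglia markers were at most 0.490 CPM in D2 and 2.09 CPM in NSC, with 1 of 6 at 0 in all libraries, and endothelial markers at most 4.02 CPM in D2 and 4.72 CPM in NSC, with 1 of 5 at 0. The part of these marker differences in the results below was not tested.

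Every one of the 47 genes was lower in D2 than in NSC. All 47 passed the filter on low counts, and their D2 libraries alone held at least 10 counts each. With edgeR's quasi-likelihood test over both states and all 3 ligand conditions, 47 of 47 fell (Benjamini-Hochberg adjusted p at most 1.22e-06), where 39.8% of the 13216 tested genes fell and 40.0% rose. Of the 47, 46 fell by at least 2-fold, against 18.0% of tested genes, and 28 fell by 3 or more on the log2 scale, against 2.33%. In all 47 each D2 library lay below each NSC library, which held for 40.9% of tested genes. The median log2 fold change was -3.06 over the 47 genes and 0.00 over all tested genes. Taken within each ligand, the median log2 ratio of D2 to NSC was -3.01 with naloxone, -3.15 with DAMGO and -3.01 in the control.

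Together the 47 genes held 0.121%, 0.112% and 0.113% of all counts in the D2 libraries, against 1.10%, 1.10% and 1.10% in the NSC libraries. The level kept in D2, as a percentage of the NSC mean, had a median of 12.003% and ran between 1.52% for Cenpe and 67.6% for Bub3. It was below 5% for 8 genes, between 5% and 10% for 9 and between 10% and 20% for 27. The 3 genes at 20% or more were the condensin subunit gene Ncapd2, the Ndc80 complex gene Spc24 and the checkpoint gene Bub3. The coefficient of variation over the 3 libraries of a state had a median of 10.9% in D2 and 2.57% in NSC, and the genes' counts were far smaller in D2. Of the 47 genes, 22 had fractional expected counts at the gene level, as arises where some reads are divided with other genes. The library kit does not mark strand, so reads of an overlapping antisense gene cannot be told apart.

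**Figure D1:**
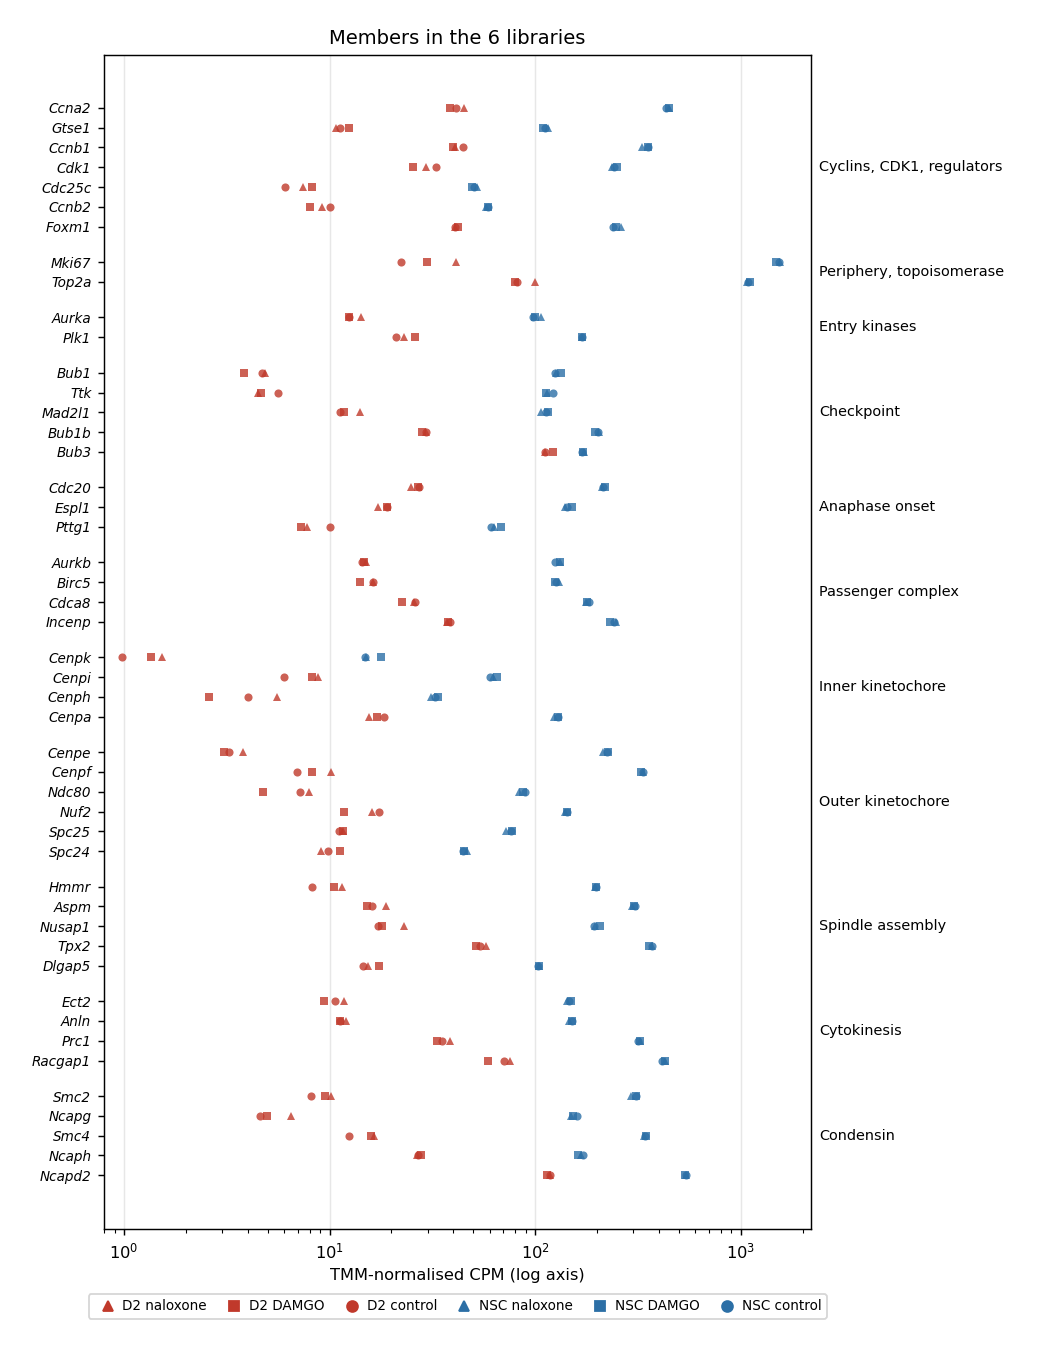
Level of each of the 47 genes in each library, as TMM-normalised CPM on a log axis. Each point is 1 library, red for D2 and blue for NSC, with triangles for naloxone, squares for DAMGO and circles for control, and genes are grouped by role. All D2 points lie left of the NSC points of the same gene, and Bub3 has the smallest gap.

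Promoters of genes that peak in G2 and M phase are known to carry the cell cycle genes homology region (CHR), which the MuvB core of the DREAM complex binds, and CCAAT boxes, which NF-Y binds. RefSeq windows (build GRCm38.p6, 250 bases before to 50 after an annotated start) were found for 38 of the 47 genes, in 44 windows. A CHR match (TTTGAA or TTCGAA, either strand) was in 29 of 44 windows, or 65.9%, against 19.2% of all 32851 windows of the same length. Within 50 bases of the start the shares were 59.1% of the 44 windows and 5.31% of all windows. CCAAT, on either strand, was in 81.8% of the 44 windows and 37.4% of all, and both motifs stood together in 61.4% of the 44 and 7.52% of all. Letters of the E2F type (TTTCCCGC, TTTGGCGC or TTTCGCGC, either strand) were in 3 of 44 windows, or 6.82%, and in 1.84% of all windows. In 108 windows of 93 further mitosis genes, the companion list described further on, the shares were 42.6% for CHR, 50.9% for CCAAT, 23.1% for both and 13.9% for the E2F letters. A match describes the letters and does not show that a factor binds.

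**Figure D2:**
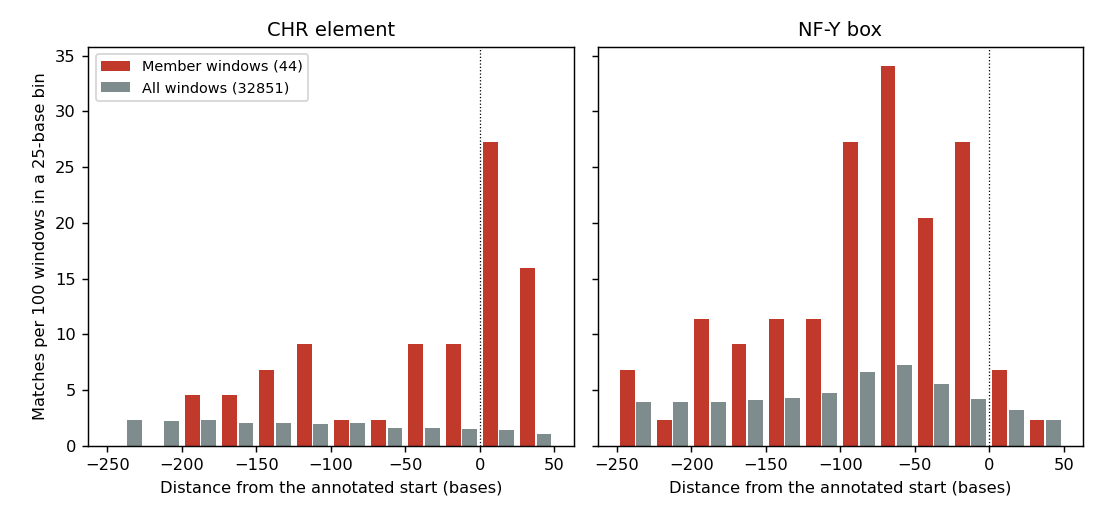
Matches per 100 windows in bins of 25 bases by distance from the annotated start, for the CHR element (left) and the NF-Y box (right). Red bars are the 44 windows found for 38 of the 47 genes and grey bars all 32851 windows. In the 44 windows CHR matches are most frequent in the first 25 bases after the start, with 27.3 per 100 windows against 1.44 in all windows, and CCAAT matches between 75 and 50 bases before it, with 34.1 against 7.20.

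Stretches from 100 bases before to 20 after the start are shown for 8 of these genes to let the spacing of the motifs be read. They are written 5′ to 3′ on the gene's strand, with capitals marking CHR or CCAAT letters on either strand. They are Ccnb2 at chr9:70421535-70421654 (minus strand), Cdk1 at chr10:69352893-69353012 (minus strand), Cdc20 at chr4:118437324-118437443 (minus strand), Ttk at chr9:83834589-83834708 (plus strand), Cenpf at chr1:189688067-189688186 (minus strand), Hmmr at chr11:40733418-40733537 (minus strand), Bub3 at chr7:131560270-131560389 (plus strand) and Cenpe at chr3:135212463-135212582 (plus strand), from RefSeq on GRCm38.p6, with the first of 2 windows for Bub3.
Ccnb2: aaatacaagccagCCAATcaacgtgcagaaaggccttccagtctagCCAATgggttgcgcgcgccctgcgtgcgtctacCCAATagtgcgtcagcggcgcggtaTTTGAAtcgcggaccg
Cdk1: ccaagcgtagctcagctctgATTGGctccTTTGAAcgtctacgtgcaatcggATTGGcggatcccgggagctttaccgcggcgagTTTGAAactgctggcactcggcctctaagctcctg
Cdc20: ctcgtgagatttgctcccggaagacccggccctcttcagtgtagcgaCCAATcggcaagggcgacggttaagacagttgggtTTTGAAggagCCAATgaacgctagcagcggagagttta
Ttk: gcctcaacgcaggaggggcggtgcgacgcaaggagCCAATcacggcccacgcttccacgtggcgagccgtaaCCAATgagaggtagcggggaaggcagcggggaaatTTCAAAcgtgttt
Cenpf: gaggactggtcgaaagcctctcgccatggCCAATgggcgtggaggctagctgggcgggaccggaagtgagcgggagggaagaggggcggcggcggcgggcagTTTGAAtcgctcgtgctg
Hmmr: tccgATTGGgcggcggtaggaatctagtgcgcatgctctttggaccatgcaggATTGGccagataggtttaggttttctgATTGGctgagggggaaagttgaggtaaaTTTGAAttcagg
Bub3: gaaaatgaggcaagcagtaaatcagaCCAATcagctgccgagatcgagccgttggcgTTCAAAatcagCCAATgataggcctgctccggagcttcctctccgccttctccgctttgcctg
Cenpe: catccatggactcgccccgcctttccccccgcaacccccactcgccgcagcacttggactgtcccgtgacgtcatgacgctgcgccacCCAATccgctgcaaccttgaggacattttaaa
In Ccnb2 there were 3 CCAAT boxes upstream of a CHR match just after the start, and Ttk, Cenpf and Hmmr had the same arrangement with 2, 1 and 3 boxes. Cdk1 had 2 CHR matches and Cdc20 had 1 CHR match between its 2 CCAAT boxes. Bub3, the gene that changed least, held both motifs, while Cenpe, the gene that changed most, held a CCAAT box and no CHR match in this window. The 26 genes with a CHR match had a median log2 fold change of -3.11 (range -5.64 to -0.57) and the 12 without had a median of -3.12 (range -6.04 to -2.62), so these letters did not sort the genes by the size of the change.

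Cyclins, CDK1 and their regulators fell together, with 7 of 7 lower in D2 and a median log2 fold change of -3.06. Cdk1 (chr10:69335146-69352938, mm10), which encodes the kinase that drives entry into mitosis, had 29.3, 25.3 and 33.1 CPM in the D2 libraries, against 238, 250.1 and 243 CPM in the NSC libraries (log2 fold change -3.06, SE 0.08). Ccnb1, which encodes its main mitotic cyclin, had 40.6, 39.8 and 44.3 CPM in the D2 libraries, against 332, 354 and 354 CPM in the NSC libraries (log2 fold change -3.06, SE 0.06). In both genes the D2 libraries kept a similar share of the NSC level, 12.003% for Cdk1 and 11.99% for Ccnb1. Each D2 library of these genes lay below each NSC library, as in 40.9% of tested genes. The largest change of the group was that of Ccna2, the cyclin of S phase and G2, with 45.1, 38.4 and 41.3 CPM in the D2 libraries, against 448, 449 and 431 CPM in the NSC libraries (log2 fold change -3.41, SE 0.06). The smallest was that of Foxm1, a transcription factor that activates G2/M genes, with 40.8, 42.2 and 40.7 CPM in the D2 libraries, against 262, 247 and 240.2 CPM in the NSC libraries (log2 fold change -2.60, SE 0.06). Its 3 D2 libraries were nearly equal. Ccnb2 (-2.68), the phosphatase gene Cdc25c, whose product activates CDK1 (-2.81), and Gtse1, whose product binds microtubules (-3.29), lay in between. This order changed with trends in GC content and length removed. Gtse1 then had the largest fall of the group (-3.58, with Ccna2 at -3.20). Ccnb1 had the smallest (-2.635, with Foxm1 at -2.83), and Cdk1 was at -3.17.

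Genes of the chromosome periphery and of chromatid untangling also fell. Mki67 (chr7:135689784-135716361), which encodes the Ki-67 protein that coats mitotic chromosomes, had 41.1, 29.8 and 22.4 CPM in the D2 libraries, against 1546, 1475 and 1532 CPM in the NSC libraries (log2 fold change -5.64, SE 0.12). Its D2 level was 2.05% of the NSC level, and within D2 the naloxone library was the highest and the control the lowest. Top2a (chr11:98992943-99024189), which encodes the topoisomerase that untangles sister chromatids, had 99.3, 79.9 and 81.9 CPM in the D2 libraries, against 1068, 1113 and 1081 CPM in the NSC libraries (log2 fold change -3.65, SE 0.07). Per transcript length Top2a was the highest of the 47 in NSC, with 58.4 ± 11.6 TPM in D2 and 692 ± 14.4 TPM in NSC (SD over the 3 ligand conditions, n = 3), followed by Cdk1 with 71.1 ± 14.2 TPM in D2 and 576 ± 16.6 TPM in NSC.

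The kinases of mitotic entry both fell. Plk1, which encodes polo-like kinase 1, had 23.0, 26.1 and 21.1 CPM in the D2 libraries, against 169, 169 and 169.6 CPM in the NSC libraries (log2 fold change -2.86, SE 0.07). Aurka, which encodes the centrosomal Aurora A kinase, had 14.3, 12.4 and 12.5 CPM in the D2 libraries, against 107, 99.7 and 97.6 CPM in the NSC libraries (log2 fold change -2.96, SE 0.07). In both genes each D2 library lay below each NSC library, as in 40.9% of tested genes. The D2 level was 13.9% of NSC for Plk1 and 12.9% for Aurka.

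The 5 spindle checkpoint genes all fell, over the widest range of any role (log2 fold changes of -4.83 to -0.57). Bub1, which encodes a kinase that recruits checkpoint proteins to kinetochores, had 4.84, 3.85 and 4.71 CPM in the D2 libraries, against 126, 133 and 124 CPM in the NSC libraries (log2 fold change -4.83, SE 0.09). Ttk, which encodes the kinase MPS1 that starts checkpoint signalling, followed (-4.56, SE 0.09), and Mad2l1, which encodes MAD2, the inhibitor of CDC20, stood at -3.18, SE 0.09. Bub1b, which encodes BUBR1, had 29.4, 28.3 and 29.3 CPM in the D2 libraries, against 205, 195 and 201 CPM in the NSC libraries (log2 fold change -2.79, SE 0.06). Bub3 (chr7:131560222-131571895), whose product carries BUB1 and BUBR1 to the kinetochore, had 112, 122 and 112 CPM in the D2 libraries, against 173, 170.0 and 169 CPM in the NSC libraries (log2 fold change -0.57, SE 0.06). The highest D2 library of Bub3 was still below its lowest NSC library, as in 40.9% of tested genes. Bub3 kept 67.6% of its level where its partners Bub1 and Bub1b kept 3.49% and 14.4%. Per length, Bub3 had 127 ± 5.50 TPM in D2 and 186 ± 2.46 TPM in NSC and Bub1b had 17.9 ± 0.912 TPM in D2 and 131 ± 4.61 TPM in NSC, so Bub3 was the most abundant of the 47 genes in D2. Over all alternative settings the log2 fold change of Bub3 lay between -0.72 and -0.53. With trends in GC content and length removed Ttk (-4.07) fell more than Bub1 (-3.73).

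Genes of anaphase onset fell by nearly equal amounts. Cdc20, which encodes the activator of the anaphase-promoting complex, had 24.9, 27.0 and 27.3 CPM in the D2 libraries, against 210.2, 219 and 213 CPM in the NSC libraries (log2 fold change -3.02, SE 0.06). Pttg1, which encodes securin, the inhibitor of separase, had 7.80, 7.24 and 10.01 CPM in the D2 libraries, against 63.1, 68.0 and 61.0 CPM in the NSC libraries (log2 fold change -2.93, SE 0.11). Espl1, which encodes separase itself, stood between them at -2.97, SE 0.06, with 12.8% of its NSC level left in D2.

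The chromosomal passenger complex, which corrects wrong attachments and later acts in cytokinesis, had 4 of 4 genes lower in D2. Aurkb, its kinase, had 15.1, 14.7 and 14.3 CPM in the D2 libraries, against 131, 132 and 124 CPM in the NSC libraries (log2 fold change -3.13, SE 0.07). Incenp, its scaffold, had 37.3, 37.6 and 38.7 CPM in the D2 libraries, against 248, 232 and 241 CPM in the NSC libraries (log2 fold change -2.67, SE 0.06). With Birc5, which encodes survivin (-3.03, SE 0.07), and Cdca8, which encodes borealin (-2.85, SE 0.07), the 4 genes kept between 11.4% and 15.7% of their NSC levels.

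At the centromere, Cenpa, which encodes the histone H3 variant that marks centromeres, had 15.5, 17.0 and 18.3 CPM in the D2 libraries, against 124, 129 and 129 CPM in the NSC libraries (log2 fold change -2.91, SE 0.07). Cenpk, a gene of the inner kinetochore, had 1.54, 1.36 and 0.981 CPM in the D2 libraries, against 15.1, 17.8 and 14.8 CPM in the NSC libraries (log2 fold change -3.62, SE 0.19). Per length it was the lowest of the 47 genes in NSC, with 2.45 ± 0.588 TPM in D2 and 29.6 ± 3.08 TPM in NSC. Its D2 values rest on 13, 12 and 10 counts, and its log2 fold change was -2.10 once trends with GC content and length were removed. Cenph (-3.00, SE 0.17) and Cenpi (-3.04, SE 0.10), which encode further subunits of the same assembly, had 47, 23 and 41 counts (Cenph) and 74, 73 and 61 counts (Cenpi) in the D2 libraries.

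The outer kinetochore gene Cenpe had the largest log2 fold change in the edgeR fit, although Mki67 exceeded it with GC content and length offsets (-5.28 for Mki67, -5.21 for Cenpe) and in limma on log2(TPM + 1) (-5.44 for Mki67, -5.02 for Cenpe). Cenpe (chr3:135212537-135273611), which encodes a motor that moves chromosomes to the spindle equator, had 3.78, 3.06 and 3.24 CPM in the D2 libraries, against 214, 225 and 224 CPM in the NSC libraries (log2 fold change -6.04, SE 0.09). The D2 values rest on 32, 27 and 33 counts and amount to 1.52% of the NSC level. Cenpf, a large kinetochore protein gene, followed at -5.31, SE 0.09. The 4 genes of the Ndc80 complex, which grips microtubules, changed by unequal amounts. Ndc80 had 7.91, 4.75 and 7.16 CPM in the D2 libraries, against 83.4, 87.2 and 89.1 CPM in the NSC libraries (log2 fold change -3.71, SE 0.12). Spc24 had 9.10, 11.2 and 9.81 CPM in the D2 libraries, against 46.8, 45.2 and 44.5 CPM in the NSC libraries (log2 fold change -2.18, SE 0.10). Nuf2 (-3.23, SE 0.09), the partner of Ndc80 in the microtubule-binding end, and Spc25 (-2.72, SE 0.08), the partner of Spc24 in the inner end, lay in between. With trends in GC content and length removed, Ndc80 still fell most, at -3.18. Nuf2 (-2.41) and Spc24 (-2.38) were then nearly equal, and Spc25 fell least (-2.17). Per length, Ndc80 had 6.76 ± 1.76 TPM in D2 and 87.9 ± 2.89 TPM in NSC and Nuf2 had 16.0 ± 3.21 TPM in D2 and 150.2 ± 1.39 TPM in NSC (SD, n = 3 each), while Spc24 had 17.1 ± 1.61 TPM in D2 and 77.1 ± 2.09 TPM in NSC and Spc25 had 19.9 ± 0.478 TPM in D2 and 131 ± 8.98 TPM in NSC. In D2 the ranges of Nuf2, Spc24 and Spc25 were close to each other and Ndc80 was lower than all of them, as it was lower than Nuf2 and Spc25 in NSC.

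All 5 spindle assembly genes fell. Hmmr, which encodes a microtubule-binding protein of spindle poles, had 11.5, 10.5 and 8.24 CPM in the D2 libraries, against 196, 197 and 197 CPM in the NSC libraries (log2 fold change -4.30, SE 0.09). Dlgap5, which encodes HURP, a stabiliser of kinetochore fibres, had 15.4, 17.4 and 14.5 CPM in the D2 libraries, against 105, 105 and 104 CPM in the NSC libraries (log2 fold change -2.73, SE 0.08). Aspm, the spindle pole gene in which mutations cause microcephaly in humans, stood at -4.17, SE 0.08, Nusap1, a microtubule bundling protein gene, at -3.36, SE 0.08 and Tpx2, whose product activates Aurora A, at -2.75, SE 0.06. Of the 5, Hmmr and Aspm kept 5.12% and 5.56% of their NSC level, and Tpx2 and Dlgap5 kept 14.9% and 15.1%.

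The 4 cytokinesis genes fell as well. Ect2, which encodes the exchange factor that activates RhoA at the cell equator, had 11.8, 9.39 and 10.6 CPM in the D2 libraries, against 143, 149 and 146 CPM in the NSC libraries (log2 fold change -3.78, SE 0.08). Racgap1, which encodes a subunit of centralspindlin, had 75.1, 59.0 and 70.2 CPM in the D2 libraries, against 427, 429 and 416 CPM in the NSC libraries (log2 fold change -2.64, SE 0.07). The contractile ring gene Anln stood at -3.70, SE 0.07 and the midzone bundling gene Prc1 at -3.17, SE 0.06. In all 4 each D2 library lay below each NSC library, as in 40.9% of tested genes.

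Condensin I fell as a whole, with a median log2 fold change of -4.52, and its subunits changed by unequal amounts. Smc2 (chr4:52439243-52488260), which encodes an ATPase arm of the ring, had 10.2, 9.51 and 8.14 CPM in the D2 libraries, against 294, 310.4 and 311 CPM in the NSC libraries (log2 fold change -5.05, SE 0.08). Ncapg (-4.85, SE 0.10) and the other arm, Smc4 (-4.52, SE 0.08), were close to it. Ncaph, which encodes the subunit that closes the ring, stood at -2.62, SE 0.06. Ncapd2, a gene of a HEAT-repeat subunit, had 118, 114 and 119 CPM in the D2 libraries, against 540.3, 536 and 541 CPM in the NSC libraries (log2 fold change -2.21, SE 0.05). Per length, Smc2 had 3.85 ± 0.356 TPM in D2 and 125 ± 4.34 TPM in NSC, Smc4 had 10.8 ± 2.14 TPM in D2 and 207 ± 3.20 TPM in NSC and Ncapg had 3.30 ± 0.870 TPM in D2 and 109 ± 6.60 TPM in NSC (SD, n = 3 each). Ncaph had 25.3 ± 2.56 TPM in D2 and 152 ± 1.30 TPM in NSC, and Ncapd2 had 84.5 ± 7.73 TPM in D2 and 441 ± 10.8 TPM in NSC. The 5 transcripts thus spread further apart in D2 than in NSC, with Ncapd2 the highest and Ncapg and Smc2 the lowest in D2. With trends in GC content and length removed the log2 fold changes were -4.10 for Smc2, -3.32 for Ncapg and -3.01 for Smc4. Those of Ncaph and Ncapd2 were then -2.70 and -2.46. The order was the same over a narrower span, and the wide gap between Smc4 and Ncaph was no longer seen.

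**Figure D3:**
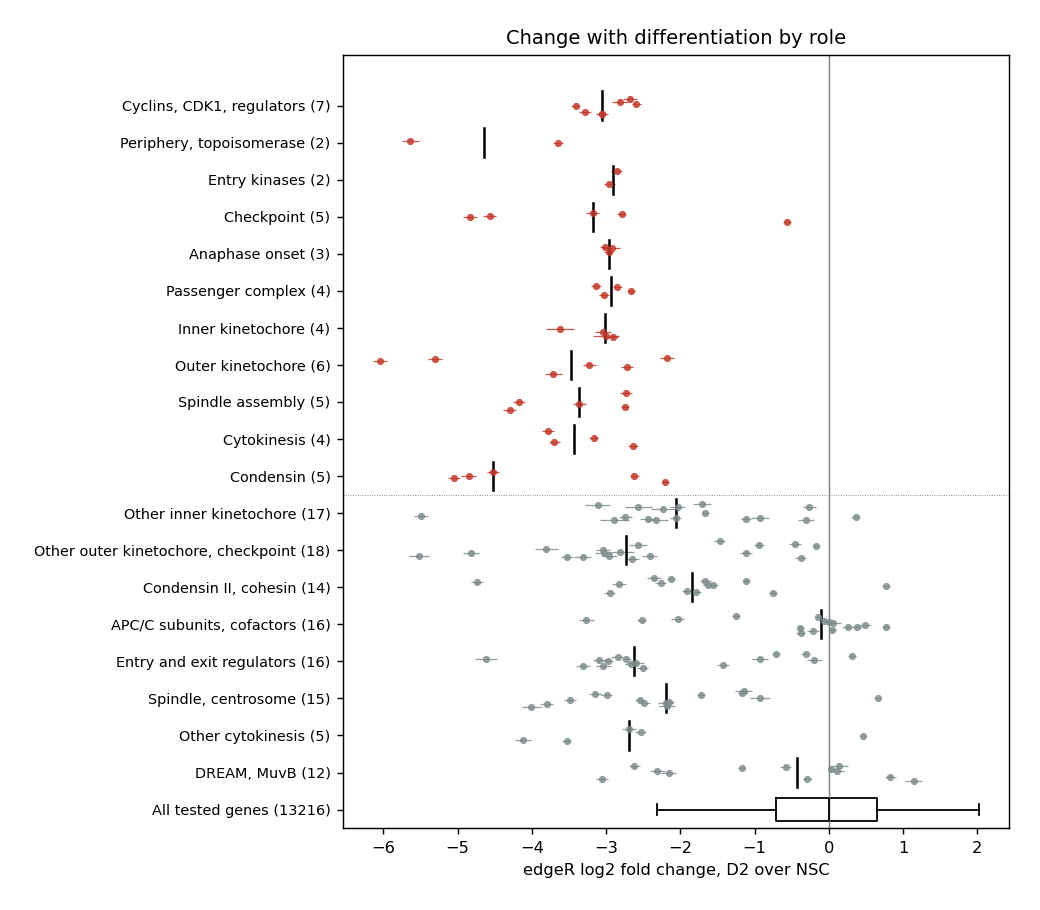
edgeR log2 fold change of D2 over NSC for each gene by role, with horizontal bars for the SE and a black line for the median of the role. Red points are the 47 genes and grey points 113 other mitosis genes; the box at the bottom shows all 13216 tested genes, with whiskers from the 5th to the 95th percentile. All red points lie below 0, and the grey points reach above 0 in 7 of 8 roles.

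A companion list of 113 further mitosis genes, drawn up by role with earlier results of these data known, was also measured. Of these, 94 fell, 11 rose and 8 were not called (edgeR, adjusted p under 0.05), with a median log2 fold change of -2.06. Over all tested genes 39.8% fell and 40.0% rose, and these shares stand beside the count of each list below. In the inner kinetochore and CENP-A loading list 16 of 17 fell: Cenpu stood at -3.12, SE 0.17 and Cenpt at -0.26, SE 0.09, while Cenpb, whose product binds centromeric DNA, rose (0.36, SE 0.06). With GC content and length offsets the rise of Cenpb was 0.105, close to the threshold (edgeR, adjusted p = 0.0499). The Cenpt call was lost in DESeq2 (adjusted p = 0.0913), without the naloxone library of NSC (edgeR, adjusted p = 0.148) and without that of D2 (edgeR, adjusted p = 0.131). In the outer kinetochore and checkpoint list all 18 fell. Knl1, the platform that recruits BUB proteins, stood at -5.52, SE 0.14 and the cohesin protector Sgo2a at -4.82, SE 0.11 (-4.20 and -3.58 with GC content and length offsets), whereas Mad1l1 (-0.38, SE 0.08) and Zwint (-0.17, SE 0.05) fell by less. The Zwint call was lost without the NSC control (edgeR, adjusted p = 0.0857) and without the D2 control (edgeR, adjusted p = 0.0796).

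Condensin II and cohesin genes fell in 13 of 14 cases. Ncapg2, a condensin II gene, had 6.38, 7.24 and 5.79 CPM in the D2 libraries, against 168, 178 and 169.9 CPM in the NSC libraries (log2 fold change -4.74, SE 0.08), and its partner Ncaph2 had 110.1, 117 and 118 CPM in the D2 libraries, against 194, 195 and 191 CPM in the NSC libraries (log2 fold change -0.75, SE 0.05). Genes of condensin II thus also fell by unequal amounts. The cohesin core gene Smc3 fell (-2.95, SE 0.08, or -1.74 with GC content and length offsets), and Mau2, a subunit of the cohesin loader, rose (0.77, SE 0.06).

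In the list of the anaphase-promoting complex, of 16 genes 8 fell, 4 rose and 4 were not called, with a median of -0.10. The share that fell was thus not far from the 39.8% of all tested genes, of which 40.0% rose. Those that fell most were its inhibitor Fbxo5 (-3.27, SE 0.10) and its ubiquitin-conjugating enzyme Ube2c (-2.52, SE 0.06), and the subunit genes Anapc2 (0.77, SE 0.05) and Cdc26 (0.49, SE 0.08) rose. Among entry and exit kinases and phosphatases 14 of 16 fell, led by the Greatwall kinase gene Mastl (-4.62, SE 0.15) and the CDK-binding Cks2 (-3.31, SE 0.09). Ensa, a substrate of Greatwall, rose (0.31, SE 0.06), and the phosphatase gene Cdc14a was not called (-0.19, SE 0.10; edgeR, adjusted p = 0.0814). In the spindle and centrosome list 14 of 15 fell, such as the abscission gene Cep55 (-4.01, SE 0.13), the centriole duplication kinase Plk4 (-3.80, SE 0.09) and Haus8 (-0.92, SE 0.13), and Numa1, whose product anchors spindle poles, rose (0.66, SE 0.05). Of 5 further cytokinesis genes Shcbp1 (-4.12, SE 0.11), Arhgap11a (-3.53, SE 0.06) and Iqgap3 (-2.53, SE 0.07) were among the 4 that fell, and the GTPase gene Rhoa, which acts in many processes of the cytoskeleton, rose (0.46, SE 0.04).

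Genes of the DREAM and MuvB complexes, which bind CHR elements, went in both directions. Of 12, 7 fell, 2 rose and 3 were not called, where 39.8% of all tested genes fell and 40.0% rose. Mybl2, whose product B-MYB joins MuvB as an activator in cycling cells, had 10.6, 10.1 and 8.34 CPM in the D2 libraries, against 83.0, 81.1 and 76.2 CPM in the NSC libraries (log2 fold change -3.05, SE 0.08). Rbl1, which encodes the pocket protein p107, had 13.1, 14.7 and 14.0 CPM in the D2 libraries, against 81.6, 92.1 and 84.1 CPM in the NSC libraries (log2 fold change -2.62, SE 0.07). The pocket protein of resting cells, p130, is encoded by Rbl2, which had 93.4, 81.3 and 87.1 CPM in the D2 libraries, against 48.3, 51.5 and 48.0 CPM in the NSC libraries (log2 fold change 0.83, SE 0.07), so p107 and p130 transcripts moved in opposite directions. The MuvB subunit gene Lin52 rose (1.14, SE 0.11).

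The fall was smaller in genes whose transcripts had a higher GC content. Across the 47 genes the log2 fold change of D2 over NSC had a Spearman correlation of 0.69 and a Pearson correlation of 0.59 with GC content, and over 13177 tested genes the values were 0.35 and 0.30. With transcript length on a log2 scale the Spearman and Pearson values were -0.44 and -0.58 over the 47 genes. Over the 13177 tested genes they were -0.07 and -0.08. These are correlations across genes that share the same libraries and are no independent replicates. The 10 genes that fell by 4 or more on the log2 scale had a median GC content of 42.6%, the 18 that fell by 3 to 4 had 45.2% and the 19 that fell by less had 51.4%, against 50.4% in all tested genes. At a GC content below 42% the median log2 fold change was -4.68 over 6 of the 47 genes and -1.03 over all tested genes, and at 50% or more it was -2.85 over 14 of them and 0.26 over all. With the trends of each library with GC content and length removed, all 47 still fell, with a median of -3.01 and a range of -5.28 to -0.72, and 24 fell by 3 or more. In that fit 12 genes had a fall smaller by more than 1.5-fold: Ncapg, Cenpk, Smc4, Bub1, Smc2, Ect2, Cenpe, Nuf2, Hmmr, Aspm, Top2a and Cenpi. The largest such shifts were in Ncapg, with -3.32 in place of -4.85, Cenpk, with -2.10 in place of -3.62, Smc4, with -3.01 in place of -4.52, and Bub1, with -3.73 in place of -4.83. The Spearman correlation with GC content was then 0.06, and Mki67 and Cenpe had the largest falls, with Mki67 now ahead. Among the 113 companion genes the median was -1.52 with the trends removed and -2.06 without this step, and 26 genes had a fall smaller by more than 1.5-fold. Beside Knl1, Sgo2a and Smc3, those named here were Ncapg2 (-4.11), Mastl (-3.68), Plk4 (-3.02), Shcbp1 (-3.10) and Rbl1 (-1.98).

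**Figure D4:**
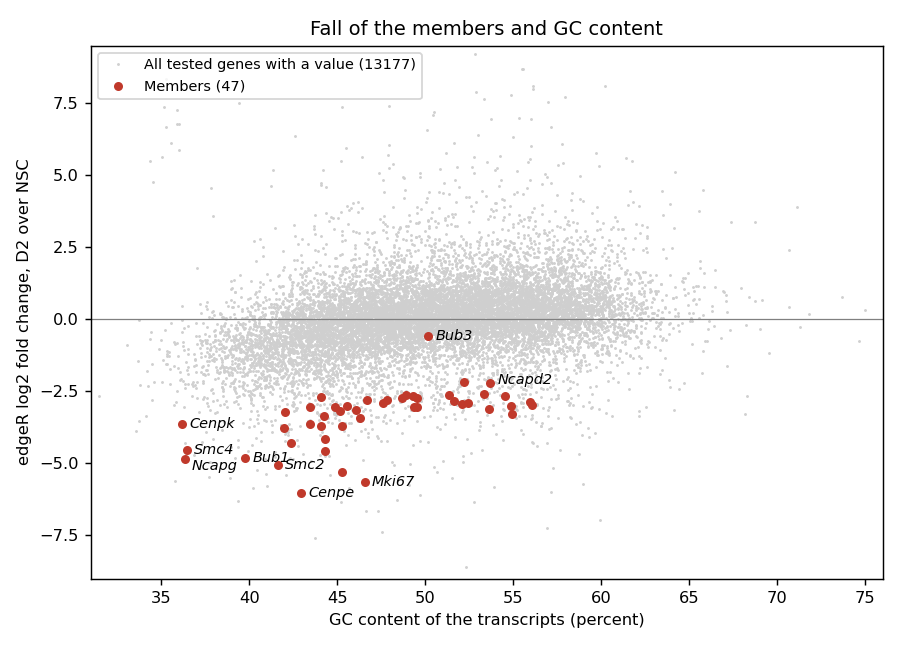
edgeR log2 fold change of D2 over NSC against the GC content of the transcripts in percent. Red points are the 47 genes and grey points the 13177 tested genes with a GC value. The 10 genes that fell by 4 or more all lie below 47% GC, and Bub3 lies at 50.2%.

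The ligands were compared over both states first. The edgeR test called 0 of the 47 genes for naloxone against control, where 0.0151% of tested genes were called, 0 for DAMGO against control (0.0151%) and 0 for naloxone against DAMGO (0.0303%). At an unadjusted p under 0.05 edgeR had 0, 0 and 0 of the 47 genes, where it had 293, 317 and 280 of all 13216 tested genes. DESeq2 also had 0, 0 and 0 of the 47 genes, and limma on log2(TPM + 1) had 1, 1 and 0. The naloxone and the DAMGO comparison share the control libraries. A ligand effect present in 1 state enters the error term of this additive model, so that such a change is hard for it to call. Mki67 alone was called in some alternative fits: for naloxone without the filter on low counts (log2 fold change 0.31; edgeR, adjusted p = 0.00895), without the NSC control (0.75; edgeR, adjusted p = 0.00225) and without the NSC naloxone library (0.70; edgeR, adjusted p = 0.0145). It was also called for DAMGO without the NSC control (0.56; edgeR, adjusted p = 0.0476) and for naloxone against DAMGO without the NSC naloxone library (0.63; edgeR, adjusted p = 0.0368). In the fits without an NSC library, the condition that loses it is represented by its D2 library alone. The remaining NSC libraries still enter these contrasts, so the values are not ratios within D2.

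Within a state each comparison sets 1 library against 1 other, so no p-value is given, and intervals are exact 95% binomial intervals that cover counting error only. In D2, the summed level of the 47 genes was 1201 CPM with naloxone, 1114 CPM with DAMGO and 1132 CPM in the control. The log2 ratio of these sums was 0.09 (0.05 to 0.12) for naloxone against control, -0.02 (-0.06 to 0.02) for DAMGO against control and 0.11 (0.07 to 0.15) for naloxone against DAMGO. With naloxone 30 of the 47 genes were higher and 17 lower than in the control, where 50.8% of all tested genes were higher. The median log2 ratio was 0.10 over the 47 genes and 0.00 over all tested genes. Of the 47, 2 were higher by at least 1.5-fold on the scale with a prior count of 2, against 4.46% of tested genes, and 0 were lower by that much, against 2.33%. The 2 were Mki67 and Cenpk, which had 1.54 against 0.981 CPM from 13 and 10 counts (log2 ratio 0.59, with an interval that includes 0). For 7 of the 47 genes the interval lay above 0, against 10.7% of tested genes, and for 0 it lay below, against 10.3%.

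Mki67 stood highest in this comparison. It had 41.1 against 22.4 CPM with naloxone against control in D2, which is 1.83-fold (log2 ratio 0.87, interval 0.63 to 1.13). Among genes of at least 5 CPM, Cenpi came next, with 8.74 against 5.98 CPM (0.54, interval 0.04 to 1.06), and Cenpf, with 10.2 against 6.96 CPM (0.54, interval 0.07 to 1.02). Top2a, Nusap1, Hmmr and Smc4 were the other genes with an interval above 0. At the lower end, Pttg1 (-0.34, interval -0.83 to 0.10), Ttk (-0.29, interval -0.95 to 0.30) and Cenpa (-0.24, interval -0.58 to 0.08) had intervals that include 0. The log2 ratio of naloxone to control in D2 was lower in genes of higher GC content, with a Spearman correlation of -0.56 over the 47 genes and -0.41 over all tested genes. With transcript length the Spearman correlation was 0.39 over the 47 genes and 0.16 over all tested genes. After removal of trends with GC content and length the median of the 47 genes was 0.03, and Mki67 was at 0.74.

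For DAMGO against control in D2, 22 of the 47 genes were higher and 25 lower (median log2 ratio -0.01), where 50.2% of all tested genes were higher. Of the 47, 0 were past 1.5-fold in either direction, against 4.37% of tested genes higher and 2.28% lower. The highest were Cenpi (0.46, interval -0.05 to 0.98), Cdc25c (0.43, interval -0.07 to 0.95) and Mki67, which had 29.8 against 22.4 CPM (0.41, interval 0.15 to 0.67). The lowest were Ndc80, with 4.75 against 7.16 CPM (-0.56, interval -1.17 to -0.02), its partner Nuf2, with 11.8 against 17.5 CPM (-0.56, interval -0.93 to -0.21), and Pttg1 (-0.45, interval -0.94 to -0.00). The interval lay above 0 for 4 of the 47 genes, against 8.48% of tested genes, and below 0 for 5, against 8.26%. For the inner end of the Ndc80 complex, Spc24 (0.19, interval -0.22 to 0.61) and Spc25 (0.07, interval -0.33 to 0.47) had intervals that include 0, and a difference between the ends was not tested. After removal of trends with GC content and length 19 of the 47 genes were higher and 28 lower, and Ndc80 (-0.60) and Nuf2 (-0.67) were lower by at least 1.5-fold, against 2.55% of tested genes. Both ligand comparisons use the same control library, in which Mki67 was the lowest of the 3 D2 libraries.

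The comparison of naloxone against DAMGO in D2 does not involve the control. In it 33 of the 47 genes were higher and 14 lower (median log2 ratio 0.12). Of all tested genes 50.5% were higher, with a median of 0.0025. Among the 47, 2 were higher by at least 1.5-fold, against 2.72% of tested genes, and 0 were lower by that much, against 2.83%. These 2 were Cenph, with 5.55 against 2.60 CPM from 47 and 23 counts (1.03, interval 0.34 to 1.88), and Ndc80, with 7.91 against 4.75 CPM (0.71, interval 0.16 to 1.33). Mki67 followed with 41.1 against 29.8 CPM (0.46, interval 0.23 to 0.70), and the interval lay above 0 for 8 of the 47 genes, against 9.56% of tested genes. The lowest were Spc24 (-0.29, interval -0.75 to 0.14), Gtse1 (-0.21, interval -0.63 to 0.20) and Plk1 (-0.18, interval -0.47 to 0.10), all with intervals that include 0. Bub3 was the only gene of the 47 whose interval lay below 0 (-0.13, interval -0.26 to -0.00), against 9.29% of tested genes. After removal of trends with GC content and length 30 of the 47 genes were higher and 17 lower, with a median of 0.11. Cenph was then at 0.99, Ndc80 at 0.63 and Mki67 at 0.35.

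In NSC the 3 libraries were much closer to each other. Their summed levels were 11028 CPM with naloxone, 11084 CPM with DAMGO and 11059 CPM in the control, with log2 ratios of -0.004 (-0.015 to 0.0071) for naloxone against control, 0.0033 (-0.0088 to 0.0155) for DAMGO against control and -0.0073 (-0.0189 to 0.0042) for naloxone against DAMGO. In each of these comparisons 0 of the 47 genes were past 1.5-fold, against 2.02% higher and 1.91% lower among all tested genes for naloxone against control, 2.24% and 2.12% for DAMGO against control, and 2.07% and 1.82% for naloxone against DAMGO. Intervals lay above 0 for 3 of the 47 genes and below 0 for 3 with naloxone against control (4.0% and 4.91% of tested genes), for 1 and 1 with DAMGO against control (3.59% and 4.19%), and for 3 and 4 with naloxone against DAMGO (5.26% and 5.55%). Naloxone against control was highest for Aurka (0.13, interval 0.02 to 0.25), Foxm1 (0.12, interval 0.05 to 0.20) and Aurkb (0.08, interval -0.02 to 0.18) and lowest for Ncapg (-0.11, interval -0.20 to -0.01), Ttk (-0.10, interval -0.21 to 0.01) and Ndc80 (-0.09, interval -0.22 to 0.03). DAMGO against control was highest for Cenpk (0.26, interval -0.07 to 0.59), Pttg1 (0.16, interval -0.00 to 0.32) and Cenpi (0.11, interval -0.05 to 0.27) and lowest for Ttk (-0.12, interval -0.24 to 0.00), Ncaph (-0.09, interval -0.19 to 0.01) and Ncapg (-0.07, interval -0.17 to 0.04). Naloxone against DAMGO was highest for Aurka (0.10), Incenp (0.09) and Foxm1 (0.08) and lowest for Cenpk (-0.24), Cenph (-0.13) and Mad2l1 (-0.11). Mki67 had 1546 against 1532 CPM with naloxone against control in NSC (0.01, interval -0.02 to 0.04), and whether its ligand ratio differs between D2 and NSC was not tested, as each rests on 1 library per group.

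**Figure D5:**
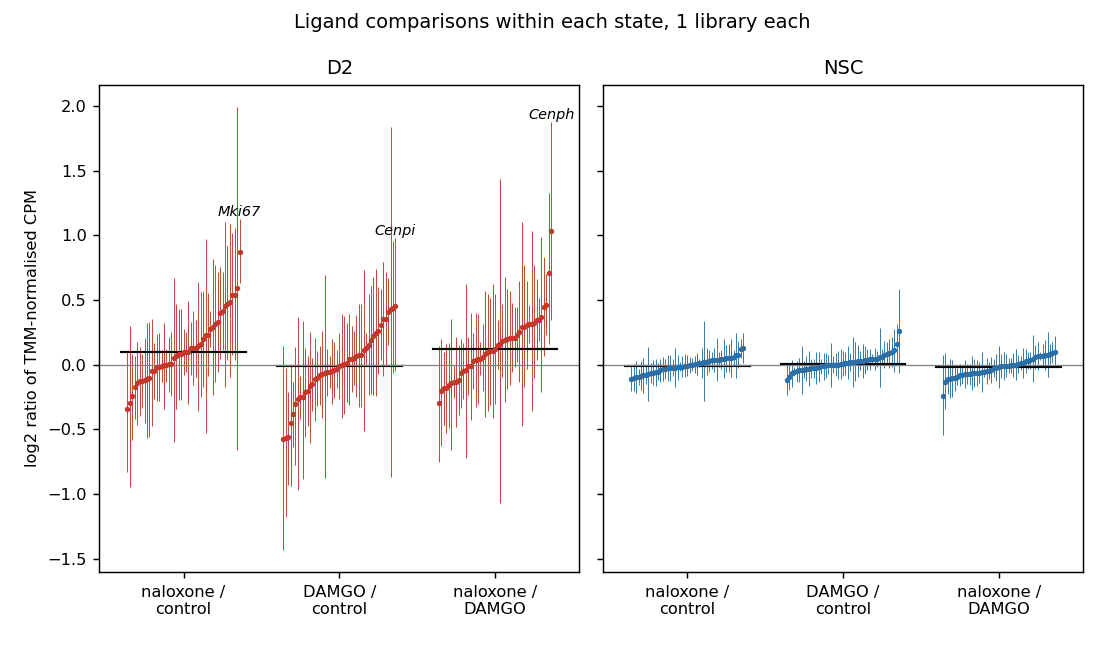
log2 ratio of TMM-normalised CPM for each of the 47 genes in the ligand comparisons within D2 (left, red) and NSC (right, blue), sorted within each comparison. Vertical bars are exact 95% counting intervals, black lines are medians, and each comparison uses 1 library per group. The gene with the highest ratio is named for each D2 comparison, with Mki67 at 0.87 for naloxone against control, and the NSC ratios all lie between -0.24 and 0.26.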

How the data were processed

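Per the labels' protocols, total RNA was taken with Trizol and made into libraries with a TruSeq RNA kit. The authors deposited, for each of the 6 libraries, a gene table that holds expected counts, TPM and FPKM. Bowtie and RSEM were used on build mm10, per the submitters' processing notes; versions and the annotation are not given in the sources used. The deposited expected counts divide reads that map to several features, and the deposited TPM values are scaled to transcript length and to the same total per library. FPKM was not used. Of 29267 gene identifiers 28756 matched GENCODE M21, from which symbols and coordinates on mm10 were taken, and all 47 genes matched.

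Rounding the expected counts to whole numbers changed no library total by more than 46.1. The test covered 13216 genes whose counts averaged 10 or more over the 6 libraries, and these held 99.8% or more of the counts of each library. After TMM normalisation, edgeR 4.0.16 (R 4.3.3) fitted state and ligand as additive terms with its quasi-likelihood functions, leaving 2 residual degrees of freedom. Adjustment was by Benjamini-Hochberg over all tested genes, at a threshold of 0.05. The SE is the log2 fold change divided by the root of the F value. Within a state, log2 ratios use a prior count of 2. Alternatives were RLE size factors, no filter, DESeq2 1.42.0, limma 3.58.1 on log2(TPM + 1), no ligand term, each library left out, summed TPM, total counts, and, chosen after seeing the data, GC content and length offsets. Scripts were tested on simulated data. The genes, their roles and the companion lists were chosen with earlier results of these data known. Genes with values by library were fixed by name, with the largest and smallest change of each role. Within a state the 3 highest and the 3 lowest genes were named among those with 5 CPM or more, and in companion lists the 2 lowest and 2 highest, of which 1 is not reported here, while further genes whose intervals exclude 0 were named after their values were seen. Motifs were searched in RefSeq windows on GRCm38.p6.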

Additional observations from a re-analysis of the deposited data

How the results depend on the processing

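All 47 genes fell in D2 against NSC under each of the 12 alternatives, and each gene kept its direction and its side of the threshold in all of them. The median log2 fold change lay between -3.15 and -3.02 when 1 library was left out, with -3.14 without the NSC naloxone library and -3.15 without the D2 naloxone library, and at -3.01 with GC content and length offsets. The number of the 47 genes called for naloxone was 0 to 1 when 1 library was left out and 1 without the filter on low counts, and it was 0 to 1 for DAMGO and 0 to 1 for naloxone against DAMGO when 1 library was left out. The gene was Mki67 each time, the share of all tested genes called in those fits is not given, and the cause was not tested. Of the 113 companion genes 91 to 94 fell under the alternatives, and Cdc14a, which was not called, changed sign with the offsets (0.0527; edgeR, adjusted p = 0.606). The summed log2 ratio of naloxone to control in D2 was 0.045 without Mki67 and Top2a, that of DAMGO to control in D2 was -0.081 on summed TPM, and in NSC it was 0.0223 for DAMGO against control on summed TPM, 0.0091 for naloxone against control with the offsets and 0.0055 for naloxone against DAMGO with the offsets. The labels give no replicate numbers, so libraries could not be paired by culture. The ligand term pairs D2 with NSC by ligand condition, and without this term 47 genes fell, with a median of -3.05. Counts of 10 to 50 per D2 library limit genes such as Cenpk, Cenpe and Cenph.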

Other observations

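Genes of DNA replication, which takes place in S phase, showed the same direction. In a list of 30 replication genes, 30 were lower in D2 by the edgeR test (adjusted p under 0.05, where 39.8% of tested genes fell), with a median log2 fold change of -2.71, against -3.06 for the 47 mitosis genes. Their summed level was 916, 874 and 855 CPM in the D2 libraries (naloxone, DAMGO, control) and 5014, 5114 and 5036 CPM in the NSC libraries. Within D2 the naloxone library was again the highest of the 3, with 1 library per group and no test.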
